A study of Mus musculus with 26 samples.

Results

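The genes described here act in the entry, retention and targets of antifolate drugs, of which pemetrexed is 1, in a mouse model of Group3 medulloblastoma. They were chosen by name: Slc19a1, Slc46a1 and Folr1 for uptake, Fpgs and Ggh for polyglutamation, Tyms and Gart as drug targets, and Paics as a further enzyme of purine synthesis. Every probe set whose only gene symbol is 1 of these 8 was taken, which gave 16 of 45037 probe sets and 7 of the 17097 genes named on the array. Slc46a1 was not analysed here, because no probe set carries its symbol in the annotation table used. Tyms had 5 probe sets, Gart 4 and Paics 3, and Slc19a1, Folr1, Fpgs and Ggh had 1 each. Another 2 probe sets that name Gart together with a second gene were left out.

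The 26 Affymetrix arrays fall into 7 groups, all from C57BL/6 mice and all lacking Trp53 and Cdkn2c (Trp53-/-, Cdkn2c-/-), so every control also carries both deletions. The Trp53 neurospheres (3 arrays) have that genotype alone and are labelled as granule neural progenitors. The other 6 groups add Myc: Group3 neurospheres (7 arrays, labelled as medulloblastoma cells), tumors with no drug named, called untreated here (5), secondary tumors (3), and tumors given pemetrexed (2), gemcitabine (3) or both (3). The study's design text marks the Trp53-/-, Cdkn2c-/- neurospheres P7 without spelling it out. The labels used here give no dose, treatment time or age, and do not say how Myc was introduced, what host the tumors grew in or what secondary means. Array titles carry the code dka or mmm. The 12 dka arrays hold both kinds of neurosphere, 3 untreated tumors and the secondary tumors, the 14 mmm arrays hold 4 Group3 neurospheres, 2 untreated tumors and all drug-treated tumors, and groups were compared within a code only. The values are log2 fluorescence intensities, so a difference of 1 is a doubling.

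Reduced folate and antifolates enter cells mainly through the reduced folate carrier, encoded by Slc19a1, the proton-coupled folate transporter, encoded by Slc46a1, and the folate receptor alpha, encoded by Folr1. Inside the cell, folylpolyglutamate synthase (Fpgs) adds glutamates that keep the drug in the cell and raise its affinity for its targets, and gamma-glutamyl hydrolase (Ggh) takes them off. Polyglutamated pemetrexed inhibits thymidylate synthase (Tyms), which makes the thymidine nucleotide for DNA, and the glycinamide ribonucleotide formyltransferase that is part of the Gart protein. Paics follows Gart in the same route of purine synthesis and is a well-known MYC target.

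Several facts about the arrays touch all values below. Array medians lay between 4.65 and 4.82. Group3 neurosphere replicate 7 and the dka arrays spanned 2.56 to 13.9, while the other 13 mmm arrays spanned -0.41 to 16.11. The mean of mmm neurosphere replicates 4 to 6 differed from the dka Group3 neurosphere mean with an SD over probe sets of 0.13. Replicate 7 alone differed from that dka mean with an SD of 0.56, and any 2 arrays of a group and code with at least 0.29. Means of several arrays vary less than single arrays, so these SDs are not like measures. Which processing step produced the closeness of the means was not tested. Granule lineage markers averaged 10.2 to 10.5 in the Trp53 neurospheres and 4.75 to 5.42 in the dka Group3 neurospheres. Macrophage markers averaged 5.77 to 6.24 and 3.94 to 4.12 in the same order, and the 2 measured red blood cell markers 6.28 to 7.12 and 4.16 to 4.40. The part of other cells in the differences between the neurospheres was not tested. Mature neuron markers averaged 8.28 to 8.79 in the Trp53 neurospheres, 7.70 to 8.85 in the dka untreated tumors and 10.1 to 10.3 in the mmm untreated tumors, but 3.86 to 4.74 in the dka Group3 neurospheres. Group3 neurosphere replicate 5 of mmm had 6.65 for the granule list and 5.63 for the neuron list, where the other 3 had at most 5.01 and 3.67. In such bulk RNA, fewer cells of a type and less RNA per cell cannot be told apart.

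Promoter windows of 4 of the genes are shown because Myc separates the Group3 samples from the Trp53 neurospheres and MYC with MAX binds the E-box CACGTG, here in capitals. The windows run from 250 bases before to 50 bases after a RefSeq start, in the build GRCm38.p6 and 5′ to 3′ on the gene's strand. Paics and Tyms hold the motif, and Slc19a1 and Fpgs, which differed most between dka untreated tumors and Trp53 neurospheres, do not. Slc19a1 has a pair of windows, for 2 annotated starts.
Paics, chr5:76951052-76951351, plus strand: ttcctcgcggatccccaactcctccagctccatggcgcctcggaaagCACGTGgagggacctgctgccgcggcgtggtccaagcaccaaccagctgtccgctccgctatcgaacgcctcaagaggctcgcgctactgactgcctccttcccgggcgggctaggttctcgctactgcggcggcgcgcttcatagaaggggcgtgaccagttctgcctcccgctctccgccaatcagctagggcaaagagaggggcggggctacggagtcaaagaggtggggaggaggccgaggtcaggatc
Tyms, chr5:30073576-30073875, minus strand: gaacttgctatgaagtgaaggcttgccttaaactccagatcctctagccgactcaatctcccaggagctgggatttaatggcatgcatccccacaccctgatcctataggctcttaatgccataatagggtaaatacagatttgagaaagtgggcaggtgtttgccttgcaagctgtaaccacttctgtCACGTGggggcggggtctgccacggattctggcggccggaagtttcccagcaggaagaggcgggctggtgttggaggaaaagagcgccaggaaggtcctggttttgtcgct
Slc19a1, chr10:77032489-77032788, plus strand: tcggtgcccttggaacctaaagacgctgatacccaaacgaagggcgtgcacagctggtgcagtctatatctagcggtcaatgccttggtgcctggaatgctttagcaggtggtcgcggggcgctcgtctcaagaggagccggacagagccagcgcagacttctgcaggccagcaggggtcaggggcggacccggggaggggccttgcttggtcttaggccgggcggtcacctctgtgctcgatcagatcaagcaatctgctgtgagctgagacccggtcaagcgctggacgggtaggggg
Slc19a1, chr10:77032962-77033261, plus strand: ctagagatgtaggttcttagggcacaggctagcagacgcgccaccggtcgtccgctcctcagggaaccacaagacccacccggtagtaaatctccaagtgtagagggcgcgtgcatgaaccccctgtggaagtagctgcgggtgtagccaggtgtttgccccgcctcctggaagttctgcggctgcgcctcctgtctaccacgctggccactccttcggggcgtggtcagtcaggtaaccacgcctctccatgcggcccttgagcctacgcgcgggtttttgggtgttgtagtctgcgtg
Fpgs, chr2:32694126-32694425, minus strand: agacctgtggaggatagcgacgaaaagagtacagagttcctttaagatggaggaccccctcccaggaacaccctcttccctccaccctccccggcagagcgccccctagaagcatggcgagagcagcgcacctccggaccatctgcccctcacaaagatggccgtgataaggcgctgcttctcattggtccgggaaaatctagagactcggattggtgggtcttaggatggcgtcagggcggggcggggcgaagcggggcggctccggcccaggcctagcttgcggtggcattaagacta

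The motif reads the same on both strands. It begins 203 bases before the start in Paics and 61 bases before it in Tyms, and 2349 of 32851 RefSeq windows of this length (7.15%) hold it. The windows of Gart and Slc46a1 do not contain these letters either, so 2 of 7 windows of the 6 genes with an entry hold them. A match is a description of the letters and shows no binding, and a window without them does not show that binding is absent.

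**Figure D1:**
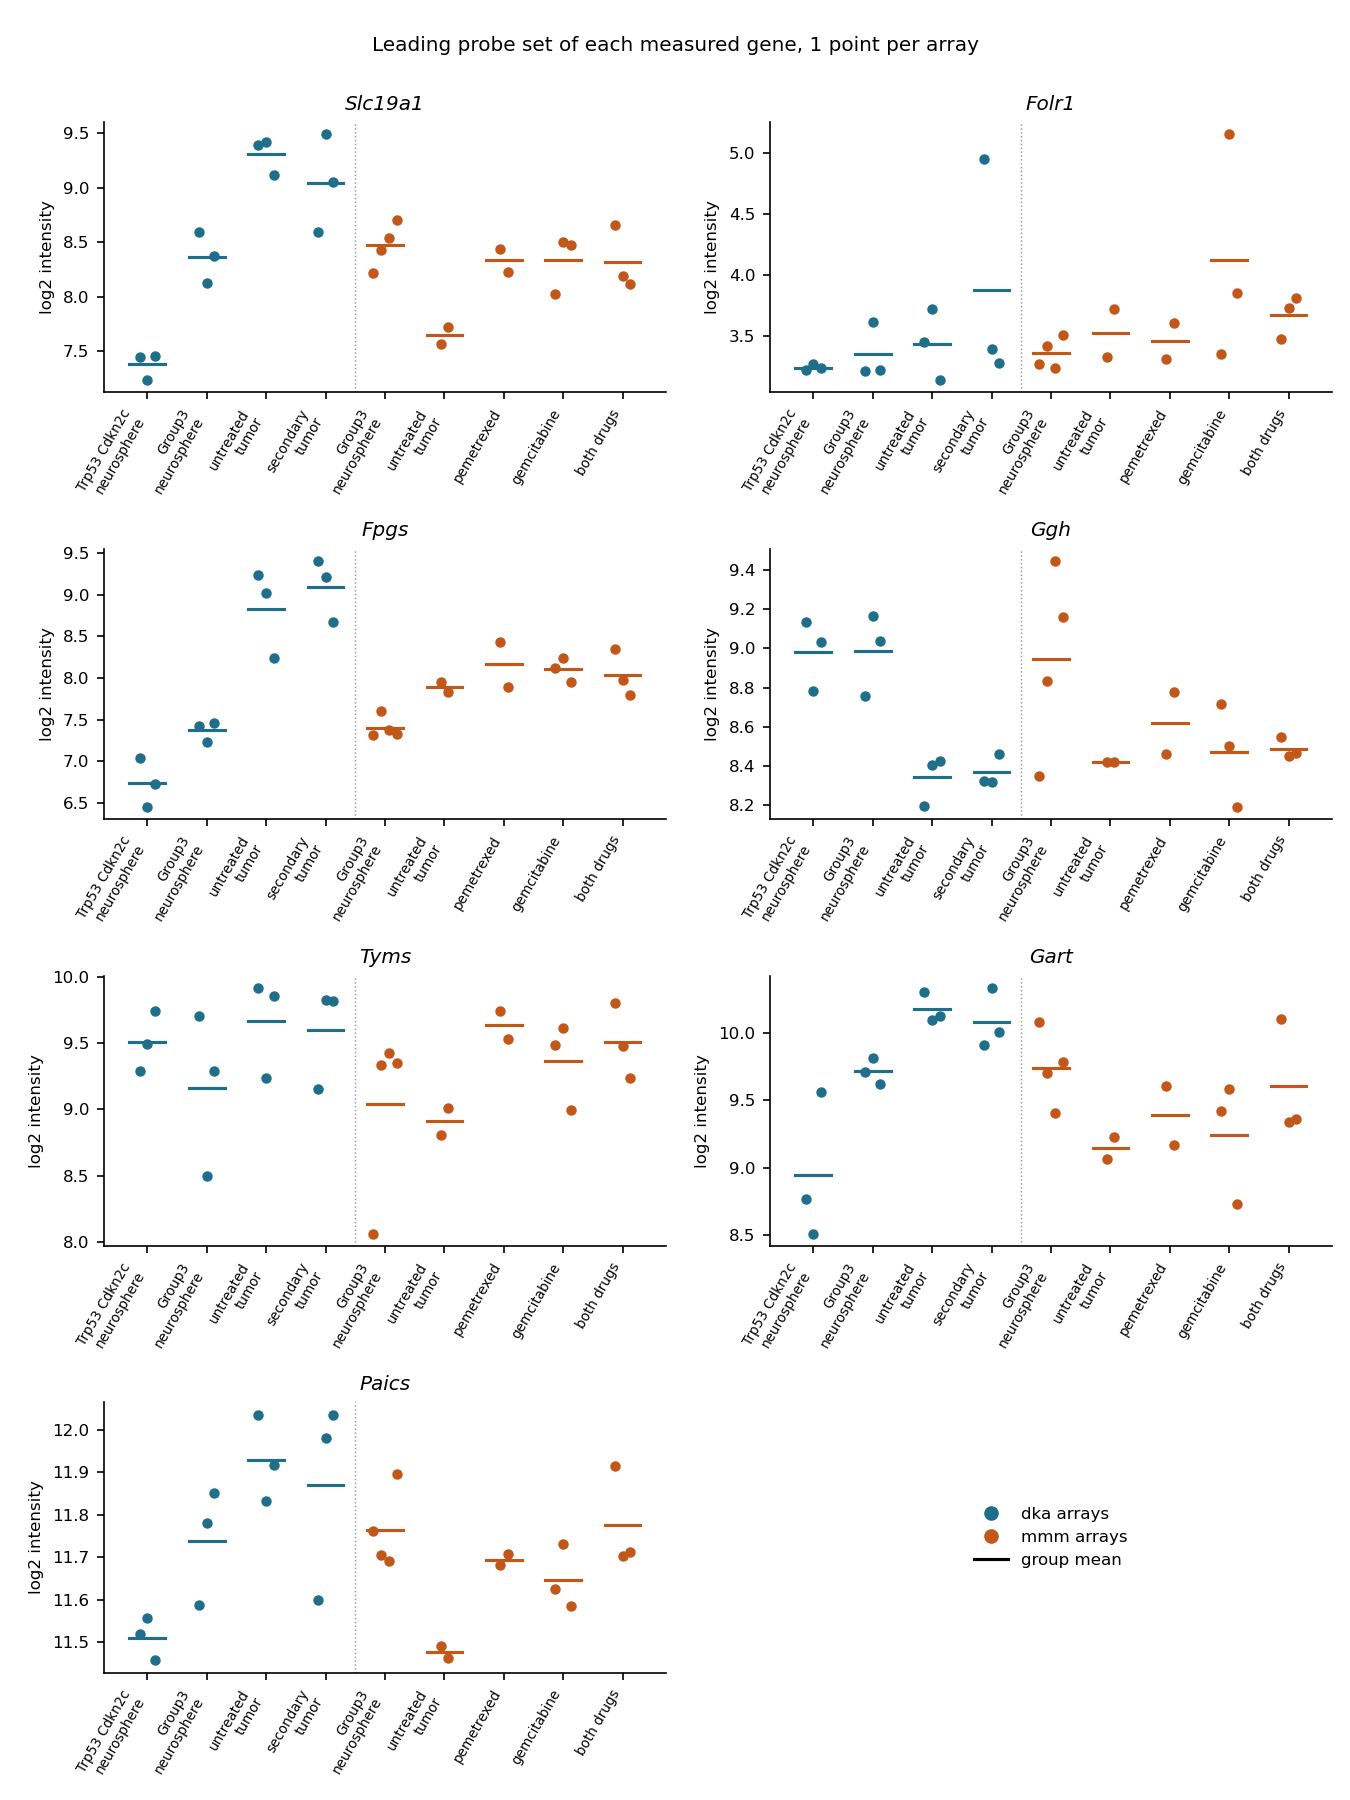
Log2 intensity of the leading probe set (the one with the highest mean over the 26 arrays) of each measured gene, with 1 point per array and a line at each group mean; blue, dka arrays; orange, mmm arrays. Slc19a1 lies at 9.12 to 9.42 in the dka untreated tumors and at 7.57 and 7.72 in the mmm ones, and Folr1 stays under 4 in all but 2 arrays.

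Slc19a1, the carrier, showed the clearest order of levels in the dka arrays. Its values were 7.45, 7.23 and 7.45 in the Trp53 neurospheres, 8.59, 8.13 and 8.37 in the Group3 neurospheres, and 9.40, 9.42 and 9.12 in the untreated tumors. These 3 groups did not overlap. Group3 neurospheres exceeded Trp53 neurospheres by 0.99 on the log2 scale (SE 0.21), or 1.98-fold, with a limma adjusted p of 0.00159. Untreated tumors exceeded Group3 neurospheres by 0.95 (SE 0.21), or 1.93-fold, with a limma adjusted p of 0.0036. Both calls held under all 15 alternative settings run for each, which included leaving out each array of the groups compared in turn. The secondary tumors, at 8.59, 9.49 and 9.05, overlapped the untreated ones.

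In the mmm arrays Slc19a1 lay the other way round. The Group3 neurospheres read 8.22, 8.43, 8.54 and 8.71, close to the dka neurospheres. The mean of replicates 4 to 6 was close over all probe sets (SD 0.13), so this closeness is not particular to Slc19a1. The 2 untreated tumors read only 7.57 and 7.72. The tumors were thus lower by 0.83 on the log2 scale (SE 0.22), 1.78-fold, with a limma adjusted p of 0.0117. The call was lost when either tumor was left out, with an adjusted p of 0.133 without replicate 4 and 0.0659 without replicate 5. The tumor minus neurosphere difference was 1.78 lower (SE 0.30) in mmm than in dka, with a limma adjusted p of 0.00327, and passed under all 20 alternatives. The Slc19a1 probe set was the 1 of the 16 whose difference between codes passed. That count is near the share of all probe sets called, 6.35%. What sets the dka and mmm tumors apart is not given in the sources used here, and code and batch cannot be told apart. Mature neuron markers, cell division genes and macrophage markers also separated the tumors of the codes. Macrophage markers averaged 5.95 to 6.38 in the dka and 7.77 to 7.97 in the mmm untreated tumors, cell division genes 9.93 to 10.1 and 8.99 to 9.05, and their part in the Slc19a1 result was not tested.

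Folr1, the folate receptor, was at the bottom of the intensity scale. Its mean over the 26 arrays was 3.55, at percentile 20.1 of all probe sets, and it exceeded its array's median in 2 arrays only. Those were secondary tumor replicate 1, at 4.95, and gemcitabine tumor replicate 2, at 5.15. The other 2 secondary tumors read 3.39 and 3.28, and the other 2 gemcitabine tumors 3.35 and 3.85, so a single array set the mean of each group. Folr1 passed in none of the 12 comparisons with limma, and its unadjusted p was at least 0.168. The 2 high arrays also had the highest Ttr of all 26, at 11.6 and 12.2. Ttr encodes transthyretin, which the choroid plexus makes in large amounts. The mean of the 9 measured choroid plexus markers was 5.01 and 5.71 in these arrays, the 2 highest values of the series, and was at most 4.49 in every other array. That mean includes Ttr itself. Only 2 of the 9 markers exceeded the array's median in the secondary tumor, as in both mmm untreated tumors, and 5 did in the gemcitabine tumor. Gemcitabine tumor replicate 2 further had the highest Kcnj13, at 5.22, and the highest Kcne2, at 4.84, both channel genes of choroid plexus. The part of choroid plexus RNA in the Folr1 values was not tested. Over the 26 arrays, with each code's mean taken off, Ttr ran most like Folr1 (Pearson r 0.76) among the 10164 genes searched. Only genes with a mean above that of the median probe set were searched, which left out dimmer genes. Without those 2 arrays r was 0.58.

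**Figure D2:**
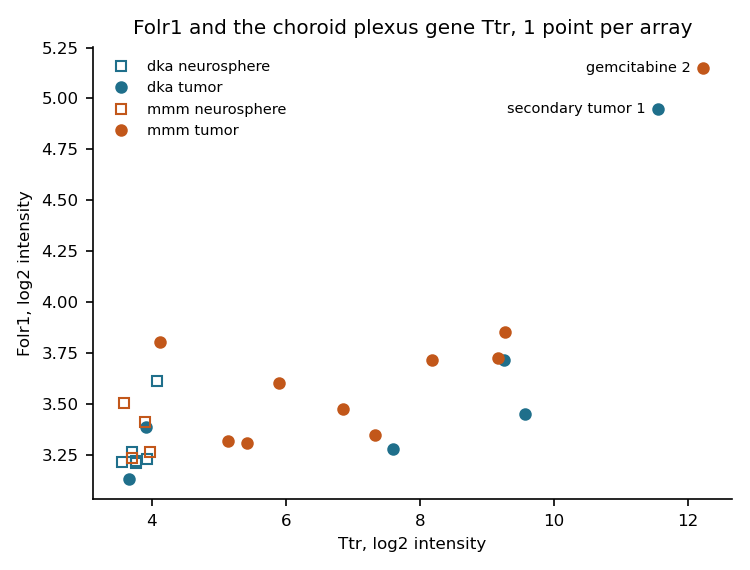
Folr1 against the choroid plexus gene Ttr, both as log2 intensity, with 1 point per array; squares, neurospheres; circles, tumors; blue, dka; orange, mmm. The 2 labelled tumors have both the highest Ttr (11.6 and 12.2) and the highest Folr1 (4.95 and 5.15).

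Fpgs, which adds the glutamates, and Ggh, which removes them, went opposite ways between neurospheres and tumors in the dka arrays. Fpgs read 7.42, 7.23 and 7.46 in Group3 neurospheres and 9.23, 9.01 and 8.24 in untreated tumors. The groups did not overlap, although untreated tumor replicate 3 stood well below the other tumors. In that tumor oligodendrocyte markers averaged 8.44 (5.48 and 4.29 in the others), fibroblast and meninges markers 6.94 (4.91 and 5.23) and endothelial markers 6.39 (5.28 and 4.87), and their part in the Fpgs values was not tested. The difference of 1.45 (SE 0.23), or 2.74-fold, was the largest of the 7 genes in this comparison, with a limma adjusted p of 0.000286, and it held under all 15 alternatives. Ggh read 8.76, 9.16 and 9.04 in the same neurospheres and 8.20, 8.40 and 8.43 in the tumors. Every tumor lay below every neurosphere, and Ggh was 0.65 lower on the log2 scale (SE 0.20), 1.56-fold, with a limma adjusted p of 0.0382. That call passed in 9 of 15 alternatives. It was lost without any 1 of the 3 tumors or without neurosphere replicate 2 or 3, where the adjusted p ran from 0.0602 to 0.146, and with every array set to the same median and spread (adjusted p 0.0786).

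Against Trp53 neurospheres, the same tumors differed more in Fpgs and by about as much in Ggh. The Trp53 neurospheres read 7.04, 6.46 and 6.73 for Fpgs, all below every Group3 neurosphere and tumor. The tumors were 2.09 higher (SE 0.23), or 4.25-fold, with a limma adjusted p of 5.12e-06. Ggh, at 9.14, 8.78 and 9.03 in the Trp53 neurospheres, was 0.64 lower in the tumors (adjusted p 0.038), but 0.35 lower with an adjusted p of 0.254 once every array had the same median and spread. It was also lost without any 1 of the 3 tumors or without Trp53 neurosphere replicate 1 or 3, where the adjusted p ran from 0.0622 to 0.135. Between the neurospheres, Fpgs was 0.63 above in Group3 (SE 0.23; limma adjusted p 0.0613) and Ggh differed by 0.00 (95% interval -0.42 to 0.43). The Fpgs value passed without Trp53 neurosphere replicate 1 (adjusted p 0.0445) and under 3 other settings.

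In the mmm arrays neither gene passed between tumors and neurospheres. Fpgs read 7.95 and 7.83 in the untreated tumors against 7.32, 7.60, 7.37 and 7.33 in the neurospheres, which gave a difference of 0.48 (SE 0.25; limma adjusted p 0.196) with no overlap. Ggh read 8.42 in both tumors against 8.35, 8.83, 9.45 and 9.16, a difference of -0.53 (SE 0.22; adjusted p 0.0981). The low neurosphere was replicate 4, and without it Ggh passed at -0.73 (adjusted p 0.00837). It also passed at -0.64 with every array set to the same median and spread (adjusted p 0.0376) and at -0.70 with array weights (0.00233). For Fpgs the difference between codes was -0.97 (SE 0.34; adjusted p 0.0882), and it passed at -1.27 without untreated tumor replicate 3 (adjusted p 0.0225), the low dka tumor. For Ggh it was 0.12 (95% interval -0.50 to 0.73).

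Among the drug targets, Tyms was bright in every array, and its groups overlapped. Its leading probe set read 9.29, 9.49 and 9.74 in the Trp53 neurospheres, 9.70, 8.50 and 9.29 in the dka Group3 neurospheres, and 9.92, 9.24 and 9.85 in the dka untreated tumors. Each range overlapped the other 2. Tumors were 0.51 above Group3 neurospheres (SE 0.33; limma adjusted p 0.379), and Group3 neurospheres were 0.35 below Trp53 neurospheres (SE 0.33; adjusted p 0.547). In the mmm arrays the neurospheres read 8.06, 9.33, 9.42 and 9.35 and the tumors 8.81 and 9.01. The low neurosphere, replicate 4, stood alone. A second, dimmer probe set of Tyms, 1438690_PM_at, passed where the leading one did not. It was 1.34 lower in Group3 than in Trp53 neurospheres (SE 0.34; adjusted p 0.00817), with 5.84, 5.20 and 4.72 against 6.42, 6.57 and 6.79, and 1.23 lower in mmm tumors than in neurospheres (SE 0.37; adjusted p 0.0245). Over the 26 arrays it followed the leading probe set only loosely (Pearson r 0.29 with each code's mean taken off), and 2 more Tyms probe sets never exceeded an array's median. With all 5 averaged, Tyms was 0.51 lower in Group3 than in Trp53 neurospheres with an adjusted p of 0.0395.

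Gart differed between the neurospheres and between tumors and Trp53 neurospheres. Its leading probe set read 8.76, 8.51 and 9.56 in Trp53 neurospheres, 9.71, 9.82 and 9.62 in Group3 neurospheres and 10.31, 10.10 and 10.13 in untreated tumors. The groups did not overlap, but Trp53 neurosphere replicate 3 came close to the lowest Group3 neurosphere. Group3 neurospheres were 0.77 higher (SE 0.26; 1.71-fold) with a limma adjusted p of 0.0427. The call was lost without any of 5 of the 6 arrays, all but Trp53 neurosphere replicate 3, with an adjusted p of up to 0.213 without replicate 2 of that group, and after quantile normalization (0.0611). Against the Trp53 neurospheres the untreated tumors were 1.24 higher (SE 0.26; 2.35-fold; adjusted p 0.00288), all 4 Gart probe sets passed, and the leading one held under all 15 alternatives. Between untreated tumors and Group3 neurospheres Gart did not pass through its leading probe set in either code, at 0.46 (adjusted p 0.286) in dka and -0.60 (adjusted p 0.149) in mmm. In mmm its probe sets disagreed. Probe set 1441911_PM_x_at was lower by 0.68 (adjusted p 0.0446), while 1424436_PM_at and 1424435_PM_a_at stood 0.76 and 0.50 above without passing.

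Paics, the brightest of the genes at percentile 99.0 of all probe sets, varied within a narrow range. Its leading probe set read 11.52, 11.56 and 11.46 in the Trp53 neurospheres, 11.59, 11.78 and 11.85 in Group3 neurospheres, and 12.04, 11.83 and 11.92 in dka untreated tumors. The tumors exceeded the Trp53 neurospheres by 0.42 (SE 0.11; 1.34-fold; limma adjusted p 0.0168). The other 2 Paics probe sets were 0.33 above in each case and did not pass. The call passed in 10 of 15 alternatives. It was lost without untreated tumor replicate 1 (adjusted p 0.074) or Trp53 neurosphere replicate 3 (0.0592), with the dka arrays fitted alone (0.0745), after quantile normalization (0.0728) and with the probe sets of the gene averaged (0.0684). The difference was 0.88 once every array had the same median and spread. Group3 against Trp53 neurospheres differed by 0.23 (SE 0.11; adjusted p 0.183). The mmm tumors, at 11.49 and 11.46, lay below all 4 neurospheres, at 11.76, 11.70, 11.69 and 11.90, by 0.29 (SE 0.12; adjusted p 0.113).

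**Figure D3:**
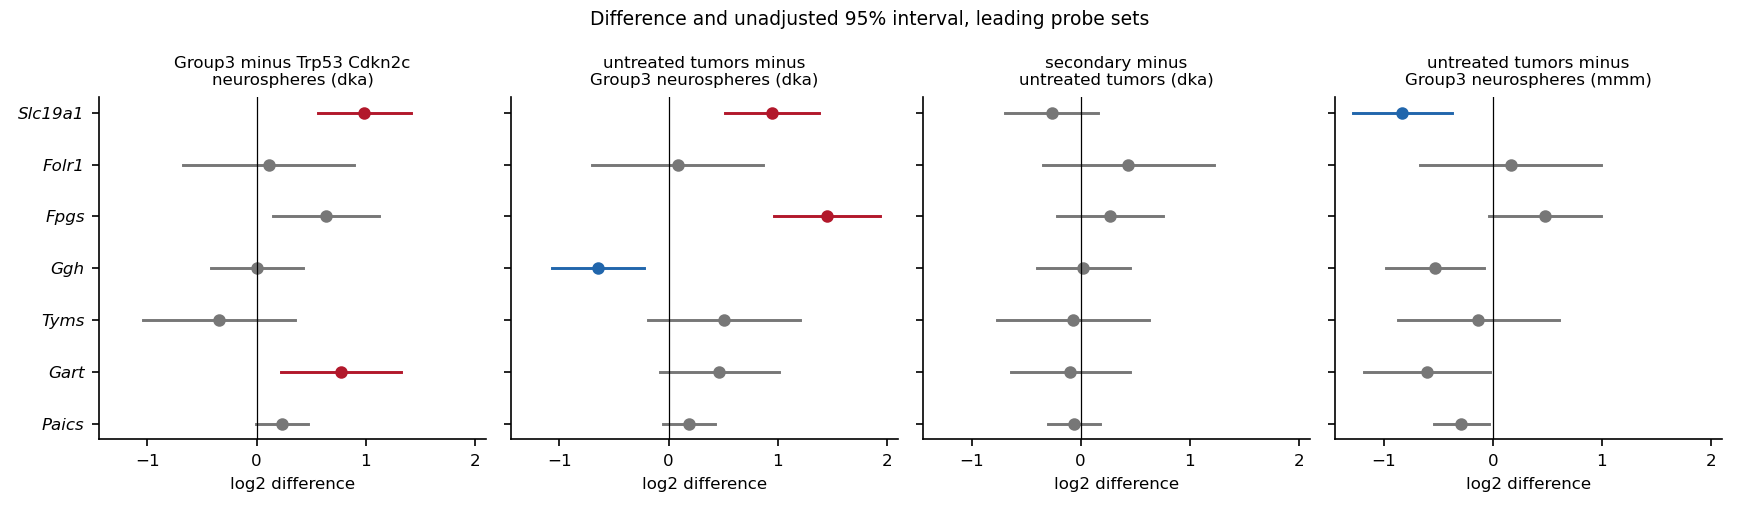
Log2 difference of each leading probe set in 4 comparisons, with unadjusted 95% intervals from limma; red, higher at an adjusted p under 0.05; blue, lower; grey, not called. Slc19a1 is 0.95 higher in dka tumors and 0.83 lower in mmm tumors than in Group3 neurospheres, and no gene is called between secondary and untreated tumors.

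The counts of probe sets stand as follows, with a call at a limma adjusted p under 0.05 over all probe sets. Between Group3 and Trp53 neurospheres 3 of the 16 were higher (Slc19a1 and 2 of Gart) and 1 lower (Tyms), against 20.1% of all probe sets called, 9.77% higher and 10.4% lower. That count was 2 without Trp53 neurosphere replicate 2 or Group3 neurosphere replicate 2, and 1 without Group3 neurosphere replicate 3. Between dka untreated tumors and Group3 neurospheres 2 were higher (Slc19a1 and Fpgs) and 1 lower (Ggh), against 13.8%, with 6.53% higher and 7.28% lower. Between the same tumors and Trp53 neurospheres 7 were higher and 1 lower, against 14.6%, with 6.52% higher and 8.06% lower. In mmm, 3 were lower in tumors than in Group3 neurospheres, against 17.5%, with 8.1% higher and 9.35% lower. The mmm count was 0 without either tumor, 1 without neurosphere replicate 7 and 6 with array weights. In the difference between codes 1 was called, against 6.35%, and 2 without dka untreated tumor replicate 3 or without neurosphere replicate 1, 5 or 6. The median over the 7 leading probe sets was 0.46 in dka tumors against Group3 neurospheres, with 0.01 over all probe sets, and -0.29 in mmm, with -0.06.

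**Figure D4:**
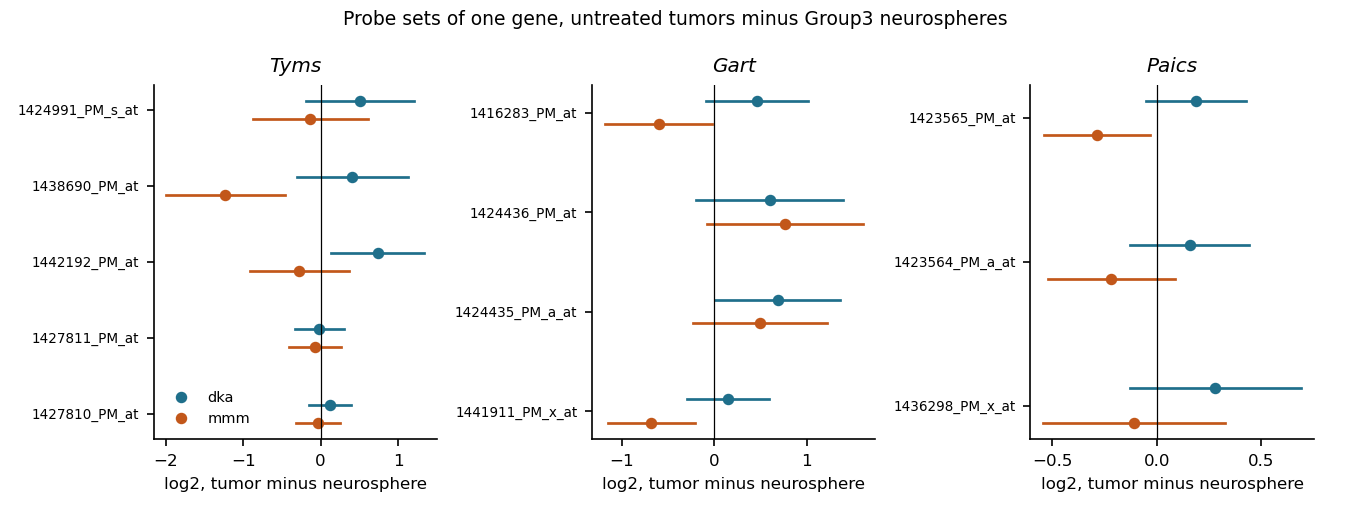
Log2 difference between untreated tumors and Group3 neurospheres for every probe set of Tyms, Gart and Paics, with unadjusted 95% intervals from limma; blue, dka; orange, mmm. In mmm the leading Gart probe set is at -0.60 while 1424436_PM_at is at 0.76, and Tyms 1438690_PM_at is at -1.23.

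No difference between secondary and untreated tumors was detected in these genes with 3 arrays against 3. None of the 16 probe sets passed with limma, 1 had an unadjusted p under 0.05, and 2.28% of all probe sets were called. The differences of the leading probe sets ran from -0.27 for Slc19a1 (95% interval -0.69 to 0.16) to 0.44 for Folr1 (-0.35 to 1.22). Fpgs read 9.40, 9.21 and 8.68, Tyms 9.16, 9.82 and 9.82, Gart 9.91, 10.34 and 10.01, and Ggh 8.32, 8.32 and 8.46 in the secondary tumors. Each of these ranges of a leading probe set overlapped that of the untreated tumors. In 4 of the 16 probe sets, none of them leading, every secondary tumor lay above every untreated one, and in 0 below. They were Gart 1424436_PM_at and 1441911_PM_x_at and Paics 1423564_PM_a_at and 1436298_PM_x_at. The share of all probe sets lying apart in this way was not taken, so the count ranks nothing. The probe set with an unadjusted p under 0.05 was Gart 1424436_PM_at, 0.86 above (SE 0.38; adjusted p 0.311), a gene whose leading probe set differed by -0.09.

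The drug comparisons ask whether the genes of antifolate action differed in tumors exposed to pemetrexed, the antifolate, to gemcitabine, a cytidine analog, or to both. All 3 use the same 2 untreated mmm tumors, so their values are given side by side and do not count as separate evidence. Slc19a1 read 8.44 and 8.22 with pemetrexed, 8.02, 8.50 and 8.48 with gemcitabine and 8.66, 8.19 and 8.11 with both, against 7.57 and 7.72 untreated. Each of the 8 treated tumors lay above both untreated ones. The differences were 0.69 (SE 0.25), 0.69 (SE 0.23) and 0.68 (SE 0.23), with unadjusted limma p of 0.0127, 0.00714 and 0.00799 and adjusted p of 1, 0.441 and 0.485. None passed. With array weights, Slc19a1 passed for gemcitabine against untreated tumors at 0.52 (limma adjusted p 0.036). It also passed for both drugs against untreated tumors at 0.62 (0.041).

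Tyms, the main target of pemetrexed, read 9.74 and 9.53 in the 2 pemetrexed tumors against 8.81 and 9.01 in the untreated. Both treated tumors were above both untreated ones, by 0.73 on average (SE 0.41; 95% interval -0.13 to 1.58; limma adjusted p 1). Gemcitabine tumors read 9.49, 9.61 and 8.998, the last below the higher untreated tumor, and tumors with both drugs read 9.80, 9.48 and 9.24. Their differences from untreated were 0.45 (SE 0.37) and 0.59 (SE 0.37). Gart read 9.61 and 9.17 with pemetrexed, 9.42, 9.58 and 8.73 with gemcitabine and 10.11, 9.34 and 9.36 with both, against 9.06 and 9.23, and only the last group cleared both untreated tumors. The probe sets of Paics differed too. In 1423564_PM_a_at every treated tumor but gemcitabine replicate 3, at 10.87, lay above the untreated 11.09 and 11.16. In 1436298_PM_x_at the treated tumors ran from 9.75 to 10.68, across the untreated 10.22 and 10.51. The leading Paics probe set read 11.68 and 11.71 with pemetrexed, 11.62, 11.73 and 11.58 with gemcitabine and 11.91, 11.70 and 11.71 with both, all 8 above the untreated 11.49 and 11.46. Its differences were 0.22, 0.17 and 0.30, with adjusted p of 1, 0.787 and 0.615.

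The genes of polyglutamation, Fpgs and Ggh, differed by less than Slc19a1 and Tyms under each treatment, but not always by less than Gart and Paics. Fpgs read 8.43 and 7.90 with pemetrexed, 8.12, 8.24 and 7.95 with gemcitabine and 8.35, 7.98 and 7.79 with both, against 7.95 and 7.83 untreated. The differences were 0.28, 0.22 and 0.15, and the largest 95% interval, for pemetrexed, reached from -0.32 to 0.87. Ggh read 8.46 and 8.78, then 8.72, 8.50 and 8.19, then 8.54, 8.45 and 8.46, against 8.42 in both untreated tumors. Its differences were 0.20, 0.05 and 0.07. Folr1 read 3.31 and 3.60 with pemetrexed against 3.32 and 3.72 untreated.

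**Figure D5:**
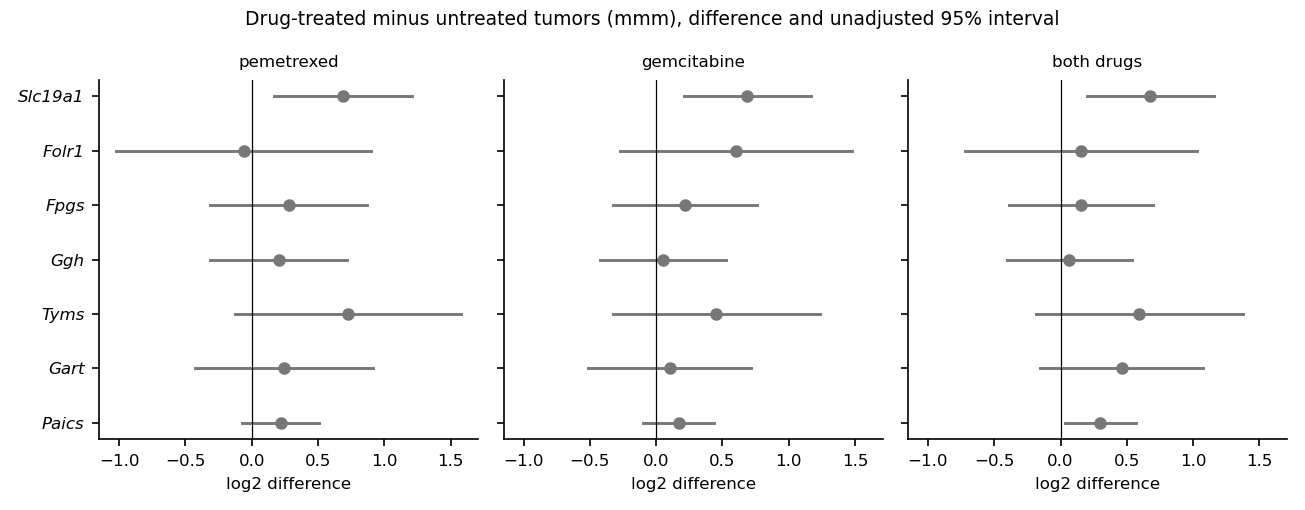
Log2 difference between drug-treated and untreated mmm tumors for each leading probe set, with unadjusted 95% intervals from limma; grey, not called. The interval of Slc19a1 lies above 0 under each treatment and no gene passes the adjusted p of 0.05; the 3 panels share the same 2 untreated tumors.

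Taken tumor by tumor, pemetrexed replicate 1 exceeded both untreated tumors in 6 of the 7 genes and 13 of the 16 probe sets, and pemetrexed replicate 2 in 4 genes and 12 probe sets. Of all probe sets, 50.04% and 41.6% did so in these arrays. In Slc19a1 the 2 tumors stood 0.80 and 0.58 above the untreated mean, and in Tyms 0.83 and 0.62. Across the 3 tumors given gemcitabine alone, 6, 7 and 4 genes and 11, 13 and 7 probe sets exceeded both untreated tumors, with 43.5% to 54.4% of all probe sets doing so. Across the 3 tumors given both drugs, 6, 7 and 6 genes exceeded both untreated tumors, with 41.3% to 48.4% of all probe sets doing so.

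None of the 16 probe sets was called by limma for pemetrexed, gemcitabine or both drugs against untreated tumors, with 0.00444%, 0.00888% and 0.0688% of all probe sets called. With array weights the counts were 0, 3 and 1. An unadjusted p under 0.05 was reached by 1, 1 and 2 probe sets. Groups lay apart with the treated side higher for 4, 3 and 5 of the 7 genes, against 29.6%, 20% and 22.2% of all probe sets. Of the 4 mature neuron markers and the 20 cell division genes, 0 were called by limma in each of these 3 comparisons. The mature neuron list averaged 10.1 and 10.3 in the untreated tumors, 7.89 and 9.21 with pemetrexed, 5.80 to 10.7 with gemcitabine and 6.84 to 9.56 with both, and gemcitabine replicate 3, at 10.7, lay above both untreated tumors. The cell division list averaged 8.99 and 9.05 untreated, 9.42 and 9.61 with pemetrexed, 9.12 to 9.70 with gemcitabine and 9.28 to 9.72 with both. Their part in the Slc19a1 and Tyms values was not tested.

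Adding pemetrexed to gemcitabine, or gemcitabine to pemetrexed, brought no call either. Both drugs against gemcitabine gave 0 of 16 probe sets, with 0% of all probe sets called and none of the 16 at an unadjusted p under 0.05. The leading probe sets differed by -0.45 for Folr1 (95% interval -1.23 to 0.34) to 0.36 for Gart (-0.19 to 0.91). Without gemcitabine replicate 2, the tumor with high Folr1, the Folr1 difference was 0.07. Both drugs against pemetrexed also gave 0 of 16, with 0.00666% of all probe sets called and again none at an unadjusted p under 0.05. There the differences ran from -0.13 for Ggh (-0.61 to 0.34) to 0.22 for Gart (-0.40 to 0.83). Whether the pemetrexed difference depended on gemcitabine was tested as the difference of differences, which called 0 of 16 (1 at an unadjusted p under 0.05) and 0% of all probe sets. That 1 was Slc19a1, at -0.70 (SE 0.32; adjusted p 0.984), and the highest was Gart at 0.12.

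Other enzymes of the same pathways were read through fixed lists, each gene by its leading probe set. In purine synthesis, 4 of 11 measured genes were higher in dka untreated tumors than in Group3 neurospheres and none was lower. They were Impdh1 at 1.45, for guanine nucleotides, Ppat at 1.16, the first committed step, Prps1 at 0.99, which makes the ribose donor, and Adss at 0.73, for adenine nucleotides, and the list median was 0.42. In the mmm arrays 4 of 11 were lower and none higher: Gmps at -1.71, Adsl at -1.10, Prps2 at -1.26 and Prpsap1 at -0.73, with a median of -0.27. The difference between codes was itself called for 6 of the 11, all lower in mmm, among them Gmps at -1.92 and Impdh1 at -1.25. Against Trp53 neurospheres 6 of 11 were higher in the dka tumors, and between the neurospheres none of the 11 was called by limma. As background, the share of all probe sets called is that given above for each comparison.

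Of the thymidylate cycle and the supply of thymidine nucleotides, 5 of 6 listed genes were measured. Dut, which removes dUTP, was 1.36 higher and Shmt1, which feeds the cycle with one-carbon units, 1.11 higher in dka tumors than in Group3 neurospheres. In mmm, Tk1, the salvage kinase, was 2.02 lower and Dtymk, the next kinase, 1.03 lower. Between the neurospheres, Dctd, which deaminates dCMP, was 1.60 higher in Group3 and Dut 0.87 lower. Of the folate cycle and further carriers, 8 of 10 listed genes were measured and 0 were called in dka tumors against Group3 neurospheres. Mthfd1, which interconverts one-carbon folates, stood 0.63 above there (limma adjusted p 0.0523) and was 1.10 higher in the tumors than in Trp53 neurospheres. In mmm, Mtr, methionine synthase, was 1.03 lower and Aldh1l1 1.80 higher in the tumors. Folr2, the second folate receptor, differed by 0.11 to 0.42 across the neurosphere and tumor comparisons of these 3 groups in dka and was not called.

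None of the genes of these 3 lists, nor any of the 20 cell division genes, was called by limma in a drug comparison. Tk1 had the largest difference with pemetrexed, at 1.18, beside 0.91 with gemcitabine and 1.38 with both. The cell division median was 0.52, 0.51 and 0.46 in the 3 drug comparisons, beside Tyms at 0.73, 0.45 and 0.59. Between tumors and Group3 neurospheres the cell division list had 4 of 20 genes higher in dka and 9 of 20 lower in mmm.

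Genes whose level ran most like each member over the 26 arrays were listed after each code's mean was taken off, as a description of arrays that share groups and scale. Only genes whose leading probe set had a mean above 4.83, the median over probe sets, were searched, so dimmer genes could not appear. For Slc19a1 they were Wdr12 (Pearson r 0.94), Gpn3 (0.92) and C1qbp (0.91), and for Fpgs Chchd4 (0.96), Hprt (0.94) and Utp15 (0.93). Gart was most like Snd1 (0.91), Paics like Xpot (0.86), Ggh like Egfr (0.89) and Tyms like Ppih (0.84) and Rrm2 (0.80), a subunit of ribonucleotide reductase. Without the 2 arrays farthest from the median of the member, r fell to 0.55 for Tyms with Rrm2 and stayed at 0.91 for Slc19a1 with Wdr12 and 0.94 for Fpgs with Chchd4. Among the members, Slc19a1 and Paics had r 0.81, Slc19a1 and Gart 0.77, Slc19a1 and Fpgs 0.75, and Fpgs and Ggh -0.70. With each group's mean taken off instead, these were 0.44, 0.29, 0.31 and -0.07, and Tyms with Slc19a1 had 0.55.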

How the data were processed

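The authors deposited log2 intensities for 45141 probe sets on 26 Affymetrix HT MG-430 PM arrays, made with RMA and Partek 6.6 per the submitters' processing notes; no counts or detection calls were used. Control probe sets (104) were dropped. Symbols came from the platform annotation, which gives 1 symbol to 28898 probe sets, several to 551 and none to 15588. One limma model (version 3.58.1, R 4.3.3) with 9 means, of every group within its title code, covered all arrays, and p-values were adjusted (Benjamini-Hochberg, 0.05) over 45037 probe sets; limma gave every p. SE is the moderated standard error. A gene is read through its probe set with the highest mean, and pathway genes named are at most 4 per list, by smallest adjusted p; others named were chosen after their values were seen. Members and lists were chosen with earlier results of these data known. Replicates follow deposit order; the labels do not say that arrays are separate animals or cultures, so p-values measure spread between arrays. The script was tested on simulated data. Alternatives were arrays of 1 code, quantile normalization, equal median and spread, dim probe sets left out, a floor of 3, eBayes with trend, array weights, averaged probe sets and leaving out each array. Figures used Python 3.11.15 and matplotlib 3.10.9. Promoters came from RefSeq.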

Additional observations from a re-analysis of the deposited data

Results flagged for a closer look

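The difference between codes in Slc19a1, a log2 value of -1.78 with SE 0.30, was listed because its limma adjusted p, 0.00327, was under 0.05. The sign was not part of that rule, and the leading probe sets of Gart, Tyms and Paics also had opposite signs in the 2 codes. For Slc19a1 the values of untreated tumors against Group3 neurospheres were as follows. The dka arrays gave 0.95 and the mmm arrays gave -0.83.

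In the group of 4 mmm Group3 neurospheres, the one group large enough for a check of single arrays, 2 of 16 probe sets had an array apart from the rest beyond Dixon's critical value of 0.829. They were Tyms 1424991_PM_s_at, with replicate 4 at 8.06 and the other 3 at 9.33 to 9.42, and Gart 1441911_PM_x_at, with replicate 6 at 5.10. Chance alone would mark about 1 in 20.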

How the results depend on the processing

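Of 963 member differences recomputed under alternatives, 893 kept their direction and side of the threshold, 25 were no longer called, 13 became called and 32 changed sign; no sign change concerned a called difference, and the largest was 0.16. For Slc19a1 in Group3 against Trp53 neurospheres and in dka untreated tumors against either, Fpgs in dka untreated tumors against either, Gart in tumors against Trp53 neurospheres and Slc19a1 between codes, every alternative kept the call. With array weights the counts were 6 in mmm tumors against neurospheres, 3 for gemcitabine, 1 for both drugs and 4 between codes. The count between codes was 2 after quantile normalization, after equal median and spread, and with dim probe sets left out. With single arrays left out, counts ran from 1 to 4 for Group3 against Trp53 neurospheres, 0 to 3 for mmm tumors and 1 to 2 between codes. No scaling moved the median of all probe sets by over 0.1.

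Signs changed for Ggh between neurospheres (-0.026 after quantile normalization, -0.0036 with array weights) and between codes (-0.11 with equal median and spread, -0.095 with array weights). They also changed for averaged probe sets of Tyms in tumors against Trp53 neurospheres (-0.16) and of Gart with gemcitabine (-0.051), and for Gart in the difference of pemetrexed differences (-0.10 with equal spread, -0.13 with array weights). The cause was not tested. With single arrays left out, Folr1 ran from -0.021 to 0.18 between neurospheres, -0.057 to 0.24 in dka tumors, -0.10 to 0.73 in secondary tumors, -0.034 to 0.36 in mmm tumors, -0.26 to 0.14 with pemetrexed, -0.046 to 0.35 with both drugs, -0.83 to 0.069 for both against gemcitabine and -0.12 to 0.28 between codes. Ggh ran from -0.10 to 0.12 between neurospheres, -0.073 to 0.19 with gemcitabine, -0.29 to 0.025 for both against pemetrexed and -0.084 to 0.28 between codes. Gart ran from -0.068 to 0.36 with gemcitabine, -0.036 to 0.44 for both against pemetrexed and -0.14 to 0.34 in the difference of pemetrexed differences. Fpgs with both drugs ran from -0.0030 to 0.28.

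No paired analysis was possible because replicate numbers follow deposit order and pair no samples across groups. Groups held 2 to 4 arrays, and each drug group was set against the same 2 untreated tumors. Intensities near the bottom of the scale, as for Folr1 and 2 Tyms probe sets, rank no groups.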
